A study of Rattus norvegicus with 50 samples.

Results

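The comparison described here is the effect of obesity in the kidney cortex of vehicle-treated ZSF1 rats, measured in 5 obese and 5 lean cortex libraries out of 50 libraries in the series. The members were chosen by their labels alone, as all cortex libraries of lean vehicle and of obese vehicle rats. Both groups share the strain, the tissue, the vehicle and a treatment time of 28 weeks; the labels also give an age of 20 weeks, which cannot hold at the end of a 28-week treatment and was not used. The other 40 libraries are medulla, or obese rats given enalapril at 10 mpk or MK-8722, an activator of AMP-activated protein kinase, at 1 or 10 mpk (the dose unit of the labels). RNA came from flash-frozen kidney, and the libraries were stranded total RNA libraries made after removal of ribosomal RNA. The labels do not tie libraries to animals, and p-values therefore refer to the spread from library to library, which may be technical.

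The obese ZSF1 rat is a hybrid that carries defective leptin receptors, and it develops obesity, high blood glucose, high blood pressure and protein loss in the urine. Lean rats of the same cross keep a working receptor and serve as controls. The renal cortex holds the glomeruli, which filter the blood, and most of the proximal tubule, which takes back glucose, amino acids, phosphate and filtered protein. In diabetic kidney disease the cortex is known for glomerular scarring, tubular injury, inflammation and interstitial fibrosis.

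Expression was deposited as FPKM, the number of fragments relative to transcript length and to all mapped fragments, with 1 value per library for each of 32545 Ensembl gene IDs. The table pairs these IDs with no gene names, and 0 of them were found in the RefSeq gene table used here. Genes are therefore given by ID, no name or function was inferred from an ID, and neither the cortex label nor any pathway was checked against marker genes. An ID was tested if its FPKM was at least 1 in 5 or more of the 10 libraries, which 12645 IDs met. Differences are means of log2(FPKM + 0.5) in obese minus lean cortex, a scale that understates the change of low genes, and an ID was called at a Benjamini-Hochberg adjusted p under 0.05 (limma, two-sided).

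The obese cortex libraries differed from the lean ones as whole libraries. Absolute depth is unknown, but low FPKM values fall on multiples of 1 read, which gives each library's depth relative to the geometric mean of the series. Relative depth was 1.26 to 1.43 in lean and 0.813 to 1.34 in obese cortex. The 6 most abundant IDs held 59.1% to 63.4% of the summed FPKM in lean and 41.6% to 59.3% in obese libraries. The summed FPKM of all other IDs was 355730 ± 6194 in lean and 393563 ± 20828 in obese cortex (SD, n = 5), with no overlap (exact permutation test, two-sided, p = 0.00794, the smallest that 5 against 5 can give; 0.0132 adjusted over 5 tests). Of the same family, depth gave an adjusted p of 0.0238 and the share of the 6 IDs one of 0.0198 (both exact permutation tests). In bulk tissue, more cells of a type and more RNA per cell cannot be told apart.

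Each obese library was shifted upward by its own amount. On the deposited scale, the median log2 difference of an obese library from the lean mean over the tested IDs was 0.35 in replicate 1, 0.44 in replicate 2, 0.21 in replicate 3, 0.14 in replicate 5 and 0.36 in replicate 6. Lean libraries lay between -0.02 and 0.03 of the mean of the other lean libraries. Replicates 3 and 5 were thus the obese libraries nearest to lean, and replicate 2 the farthest. Replicate 5 also had the highest depth of the obese libraries (1.34) and replicate 2 the lowest (0.813). For this reason tests across all IDs are given on 2 scales. For the rescaled values, the ratio of each ID to its geometric mean over the 10 libraries was taken, and each library was divided by the median of these ratios, which sets the shift near 0 in each library.

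**Figure D1:**
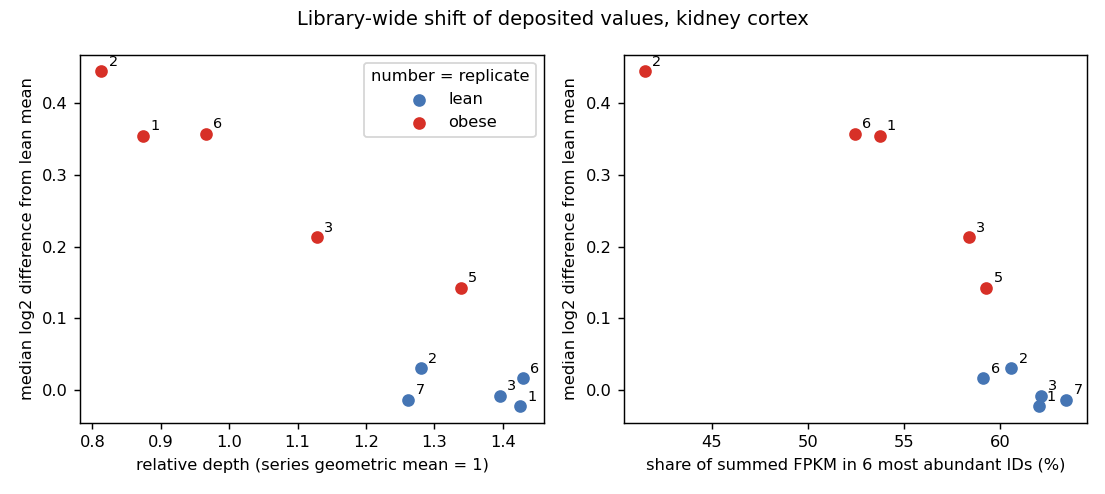
Median log2 difference of each cortex library from the lean mean on the deposited scale (vertical axis) against its relative depth (left) and the percentage of summed FPKM in the 6 most abundant IDs (right); blue points are lean and red points obese libraries, numbered by replicate. The obese libraries spread from 0.14 (replicate 5, near the lean points) to 0.44 (replicate 2, with the lowest depth and the lowest share), while lean libraries stay between -0.02 and 0.03.

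The 4 IDs described next were chosen as the 2 largest rises and 2 largest falls after rescaling among called IDs whose groups did not overlap, so that their size and their lack of overlap are descriptions. ENSRNOG00000043451 showed the largest rise. Its FPKM in lean cortex was 58.2, 50.7, 44.9, 45.6 and 44.2 in replicates 1, 2, 3, 6 and 7, and in obese cortex it was 3967, 4346, 2233, 1394 and 4049 in replicates 1, 2, 3, 5 and 6. The lean values were tightly grouped, and the lowest obese value, in replicate 5, was 24.0-fold above the highest lean value. By mean FPKM this ID ranked 1022 of the 32545 IDs in lean and 14 in obese cortex, where it held 0.154% to 0.602% of all summed FPKM. The means were 48.7 ± 5.87 and 3198 ± 1305 (SD, n = 5), 65.7-fold apart. The log2 difference was 5.91 ± 0.299 (SE) with an adjusted p of 4.99e-07 as deposited, and 5.58 ± 0.245 with an adjusted p of 1.09e-07 after rescaling.

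ENSRNOG00000030729 went from a low to a moderate level. In lean cortex its FPKM was 2.36, 3.85, 2.14, 2.50 and 2.91 in replicates 1, 2, 3, 6 and 7. In obese cortex it was 134, 143, 98.5, 74.1 and 119 in replicates 1, 2, 3, 5 and 6. Again replicates 5 and 3 were the lowest of the obese libraries, and the lowest obese value exceeded the highest lean value 19.2-fold. This ID moved from rank 9589 to rank 457 by mean FPKM. Its log2 difference was 5.12 ± 0.182 (SE, adjusted p = 2.20e-08) as deposited and 4.81 ± 0.147 (adjusted p = 8.20e-09) after rescaling.

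ENSRNOG00000010932 showed the largest fall. Its FPKM was 10.2, 9.80, 8.63, 9.80 and 8.20 in lean replicates 1, 2, 3, 6 and 7. In obese replicates 1, 2, 3, 5 and 6 it was 0.644, 0.484, 1.10, 1.39 and 0.583. Every lean value was at least 5.92-fold above every obese value, and obese replicates 3 and 5 kept the most. The mean fell 11.1-fold, with a log2 difference of -2.92 ± 0.169 (SE, adjusted p = 1.53e-07) as deposited and -3.16 ± 0.185 (adjusted p = 1.49e-07) after rescaling.

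ENSRNOG00000036984 fell as well but varied more. In lean cortex its FPKM was 9.41, 12.6, 5.82, 7.64 and 4.42 in replicates 1, 2, 3, 6 and 7, and in obese cortex it was 2.49, 1.45, 0.335, 0.0705 and 0.783 in replicates 1, 2, 3, 5 and 6. The groups did not overlap, but the gap between the lowest lean and the highest obese value was only 1.78-fold. Here the order within the obese group was another one: replicates 5 and 3, the nearest to lean for the other 3 IDs, had the lowest values and so lay farthest from lean. The log2 difference was -2.63 ± 0.448 (SE, adjusted p = 0.000799) as deposited and -2.90 ± 0.417 (adjusted p = 0.000309) after rescaling.

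**Figure D2:**
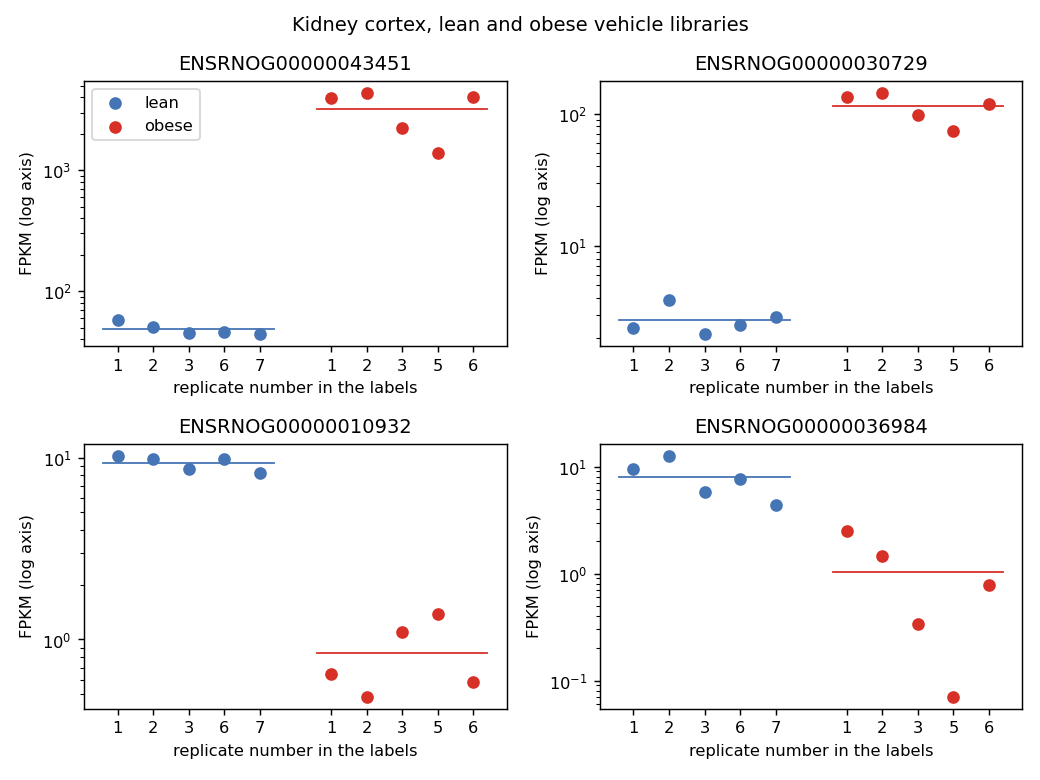
FPKM of the 4 IDs in each cortex library on log axes, with lean libraries in blue, obese libraries in red and group means as horizontal lines. The groups do not overlap, as the choice of these IDs required; among obese libraries replicates 3 and 5 lie nearest to lean for 3 IDs and farthest from lean for ENSRNOG00000036984, where replicate 5 is at 0.0705 FPKM.

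The 4 IDs were also read in the obese cortex libraries given a drug, as levels only. ENSRNOG00000043451 ranged from 3074 to 4589 FPKM under MK-8722 1 mpk, from 595 to 2628 under MK-8722 10 mpk and from 1137 to 2101 under enalapril. ENSRNOG00000030729 ranged from 98.7 to 155, from 34.3 to 153 and from 32.4 to 71.3 FPKM in the same order. Both IDs were above the lean maxima of 58.2 and 3.85 in all of these libraries. ENSRNOG00000010932 ranged from 0.577 to 1.49 under MK-8722 1 mpk, from 3.83 to 6.99 under MK-8722 10 mpk and from 0.505 to 1.10 under enalapril, below the lean minimum of 8.20. ENSRNOG00000036984 ranged from 0.112 to 1.62, from 0.0974 to 3.20 and from 0.0386 to 2.31 FPKM in that order, below the lean minimum of 4.42.

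The difference between obese and lean cortex reached well beyond single IDs. On the deposited scale 7594 of the 12645 tested IDs were called, 60.1% of those tested. Of these, 6657 (52.6%) were higher in obese cortex and 937 (7.41%) were lower. After rescaling 5695 IDs (45%) were called, 2842 (22.5%) higher and 2853 (22.6%) lower. The median log2 difference over all tested IDs was 0.29 as deposited and -0.01 after rescaling. Scaling the libraries to an equal sum over all but the 6 most abundant IDs, an alternative chosen after seeing the data, gave 4784 higher and 1537 lower.

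The sets of calls on the 2 scales were nested. All 2842 rescaled rises were also called higher as deposited, and all 937 deposited falls were also called lower after rescaling; since rescaling lowered the obese relative to the lean values across IDs, this nesting follows largely from the scaling itself. A further 3808 IDs were called higher as deposited and not called after rescaling, and 1909 were called lower after rescaling alone. Only 7 IDs were called higher on one scale and lower on the other. The 3142 remaining IDs were called on neither scale.

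Large differences were mostly rises on both scales. As deposited, 1252 called IDs were at least 2-fold higher and 73 at least 2-fold lower, together 10.5% of those tested. After rescaling the numbers were 852 and 215, together 8.44%. At least 4-fold differences were 254 rises and 6 falls as deposited, and 142 rises and 13 falls after rescaling. At least 8-fold rises numbered 41 and 23 on the deposited and the rescaled scale, against 0 and 1 falls, and at least 16-fold rises numbered 7 and 6. The tested IDs include 322 that passed the filter through the obese group alone and 12 through the lean group alone, which favours rises. Without them, 624 called IDs were at least 2-fold higher on both scales and 69 lower. The larger classes were not counted without them.

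**Figure D3:**
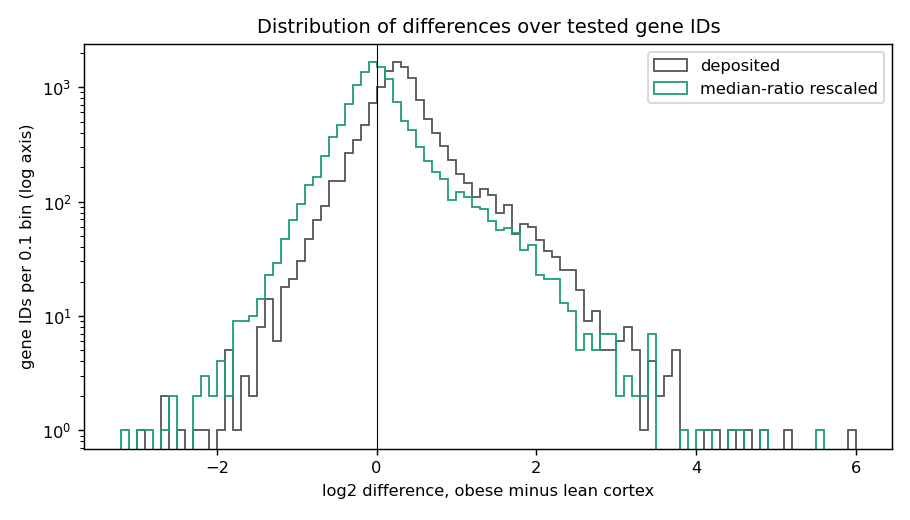
Number of tested gene IDs (log axis) by log2 difference between obese and lean cortex in bins of 0.1, as deposited (grey) and after median-ratio rescaling (green). Rescaling moves the centre from 0.29 to -0.01, while the longer right arm, with 142 at least 4-fold rises against 13 falls after rescaling, is present on both scales.

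IDs that were called and at least 2-fold apart on both scales numbered 925 (7.32% of those tested), of which 852 were rises (6.74%) and 73 falls (0.577%). The raised IDs came from low levels: their median FPKM was 1.36 in lean and 6.58 in obese cortex, and 331 of the 852 had a lean mean under 1. Of these 852, 228 passed the filter on low values through the obese group alone, so they had to differ, and no support is drawn from them. The lowered IDs had a median of 13.2 FPKM in lean and 5.78 in obese cortex, and 13 of the 73 had an obese mean under 1. Of the 73, 4 passed through the lean group alone. Among the others the 5 obese and 5 lean values did not overlap on either scale for 592 of 624 raised and 52 of 69 lowered IDs. These IDs were called and at least 2-fold apart in the same libraries, so this follows largely from their choice. Over all tested IDs the groups did not overlap for 41.2% as deposited (36.6% higher and 4.69% lower in obese cortex) and for 33% after rescaling (17.2% higher and 15.9% lower).

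More IDs were above 1 FPKM in obese cortex. A lean library listed 12022 ± 54.2 IDs at 1 FPKM or more and an obese library 13037 ± 333 (SD, n = 5), with no overlap (exact permutation test, two-sided, p = 0.00794, adjusted p = 0.0132). After rescaling, the numbers were 12227 ± 37.3 and 12795 ± 162 (SD, n = 5), again with no overlap (exact permutation test, p = 0.00794, adjusted p = 0.0132). Among tested IDs, 322 reached 1 FPKM as deposited in all 5 obese libraries and in no lean library, and 12 showed the opposite.

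The balance of rises and falls differed with the abundance of the IDs. Among 1083 IDs with a mean of 50 FPKM or more over the 10 libraries, 517 (47.7%) were lower and 226 (20.9%) higher after rescaling. Among 1482 IDs with a mean under 2 FPKM, 152 (10.3%) were lower and 431 (29.1%) higher. At 2 to 10 FPKM 848 (14.8%) were lower and 1419 (24.7%) higher of 5738 IDs, and at 10 to 50 FPKM 1336 (30.8%) were lower and 766 (17.6%) higher of 4342. The share called lower thus rose from bin to bin, while the share called higher was smallest at 10 to 50 FPKM. Median log2 differences after rescaling were 0.12, 0.04, -0.06 and -0.22 from the lowest to the highest bin. On the deposited scale rises outnumbered falls in every bin: the share called higher was 45.3%, 55.8%, 53.8% and 41.7%, and the share called lower 4.86%, 4.17%, 8.38% and 24.2%. The deposited medians were 0.36, 0.33, 0.25 and 0.10. Of the 6 most abundant IDs, 4 were called lower and 0 higher after rescaling, and 3 and 0 as deposited. Each bin holds a different share of IDs that passed the filter through one group, and precision is lower at low FPKM.

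**Figure D4:**
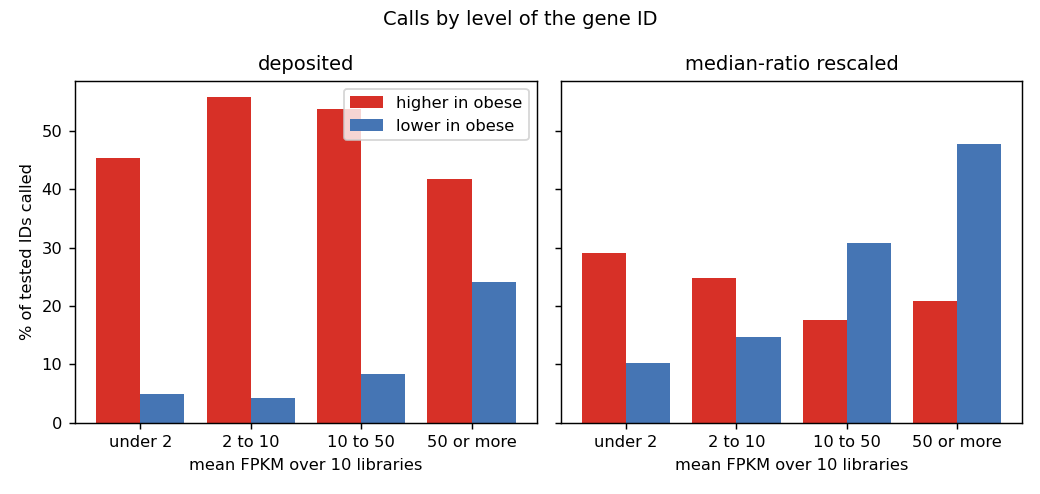
Percentage of tested IDs called higher (red) or lower (blue) in obese cortex, by mean FPKM over the 10 libraries, as deposited (left) and after rescaling (right). The blue bars are highest at 50 FPKM or more on both scales, at 24.2% as deposited and 47.7% after rescaling; the red bars exceed the blue ones in every bin as deposited, but only in the 2 lower bins after rescaling.

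The obese libraries also varied more among themselves than the lean ones. The median standard deviation of log2(FPKM + 0.5) per ID was 0.130 in lean and 0.204 in obese cortex as deposited, and 0.130 and 0.167 after rescaling. The obese group had the larger standard deviation for 77.6% of the tested IDs as deposited and 66.0% after rescaling. For the raised IDs, at least 2-fold on both scales, it was larger in 658 of 852, and for the lowered IDs in 60 of 73. Both sets include the IDs that passed the filter through 1 group alone. The first principal component, which separated the groups, held 73.7% of the variance as deposited and 67.4% after rescaling. On both scales obese replicate 5 and then replicate 3 lay nearest to the lean libraries on it.

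The pattern was read in each obese library when that library took no part in the fit that called it. For this, each library was left out in turn, IDs at least 2-fold apart were called in the 9 others, and the left-out library was compared with the 5 lean libraries, which all these readings share. IDs that reached 1 FPKM in 1 group alone were left out of the readings. The filter and the rescaling still used all 10 libraries. The calls also used the same 5 lean libraries, so lying outside their range is partly built in. After rescaling, the share of raised IDs at which the left-out obese library lay above all 5 lean libraries was 99.7% of 581 for replicate 1, 98.8% of 580 for replicate 2, 98.4% of 634 for replicate 3, 93.6% of 685 for replicate 5 and 99.0% of 591 for replicate 6. Over all tested IDs an obese library lay above all lean libraries at 26.9% to 35.0%. The median log2 difference of the raised IDs from lean was 1.00 in replicate 5 and 1.30 in replicate 3, against 1.59, 1.62 and 1.62 in replicates 1, 2 and 6. The lowered IDs lay below all lean libraries at 79.0% of 200 for replicate 1 and at 94.4% to 99.4% for the others, where 28.9% to 35.4% of all tested IDs did so. Their median log2 difference was -0.75 in replicate 5 and between -1.05 and -1.45 in the others.

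On the deposited scale the raised IDs gave a like picture and the lowered IDs another. Raised IDs lay above all lean libraries at 91.6% in replicate 5 and at 97.8% to 99.5% in the others, where 47.6% to 73.3% of all tested IDs did so, with a median log2 difference of 0.89 in replicate 5 against 1.69, 1.79 and 1.69 in replicates 1, 2 and 6, and between these in replicate 3. Lowered IDs were closest to lean in replicate 1, with a median of -0.69 and 64.0% of 86 below all lean libraries. In replicate 5 the median was -1.01 and the share 98.5% of 68. Over all tested IDs, 9.64% to 14.3% lay below all lean libraries as deposited.

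**Figure D5:**
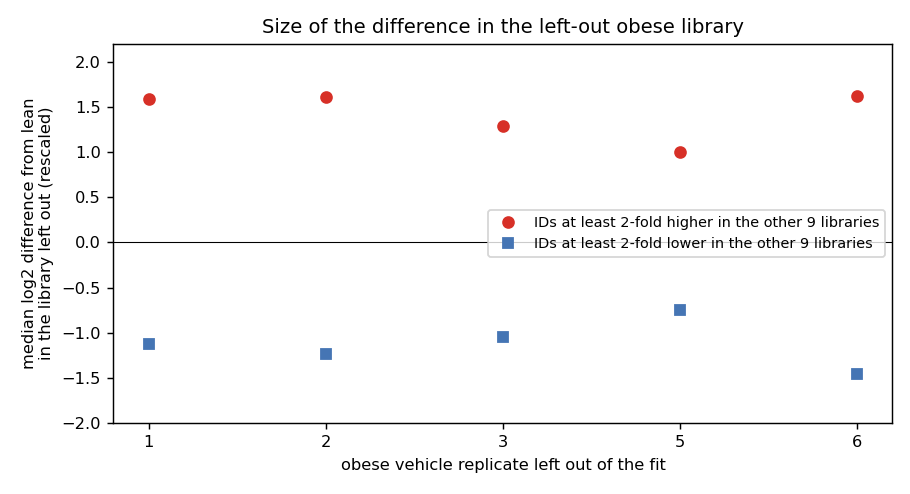
Median log2 difference from the lean mean, after rescaling, in each obese cortex library when it was left out of the fit, for IDs called at least 2-fold higher (red circles) or lower (blue squares) in the remaining libraries, without IDs that reached 1 FPKM in 1 group alone. The medians have the same sign in all 5 libraries and on this scale are smallest in size in replicate 5, at 1.00 and -0.75.

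Among the 10 libraries compared, replicate 5 is the only obese one whose library number falls in a separate higher range, which also holds 2 of the lean libraries. Drug-treated obese cortex libraries outside this comparison fall in that range as well. Within the lower range alone, 6996 IDs were called as deposited and 5156 after rescaling. The higher range, with 2 lean and 1 obese library of this comparison, holds too few of them for a value of its own. With the range as a term in the fit the numbers were 7169 and 5400. Without replicate 5 they were 8232 and 6104, and without replicate 2, the library with the lowest depth, 6917 and 5226.

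Relative depth moved with the groups, and entering it as a term in the fit left fewer calls. As deposited 2166 IDs were then higher and 469 lower, and after rescaling 1445 and 1054. At least 2-fold calls numbered 792 as deposited and 708 after rescaling. The 4 IDs described above stayed called, with log2 differences on the deposited scale of 4.99 for ENSRNOG00000043451, 4.51 for ENSRNOG00000030729, -2.37 for ENSRNOG00000010932 and -3.80 for ENSRNOG00000036984. In 4 of the 5 obese libraries depth was lower than in every lean library, so depth and group cannot be told apart fully. Over all 37 fits, counting both scales together, 1385 of the 12645 tested IDs were called higher and 334 lower each time. Over the 35 fits without relative depth as a term, the numbers were 2280 and 657. Among IDs at least 2-fold apart on both scales, 777 of 852 raised (91.2%) and 53 of 73 lowered (72.6%) were called in all 37 fits. These shares are descriptions, since both sets include the 228 raised and 4 lowered IDs that passed the filter through 1 group alone.

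The effect of obesity in cortex was compared with that in medulla by an interaction in one fit of the 20 vehicle libraries, over 13821 IDs. The effect differed between the tissues for 845 IDs (6.11%) as deposited, with 492 more positive in cortex and 353 more positive in medulla. After rescaling it differed for 1142 IDs (8.26%), 736 and 406. Relative depth was 0.992 to 1.18 in lean and 0.599 to 0.815 in obese medulla, and no medulla library falls in the higher library number range. Neither depth nor range was a term in an interaction fit, so their part in these counts was not tested. With the replicate number within genotype as a block, the counts fell to 464 as deposited (231 more positive in cortex, 233 in medulla). After rescaling they fell to 514 (345 and 169). Only lean numbers 1, 3, 6 and 7 and obese numbers 3, 5 and 6 occur in both tissues. The other libraries do not inform the contrast with the block, so blocking and the loss of libraries cannot be told apart.

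ENSRNOG00000043451 started lower in cortex and rose more there on the log2 scale, though it reached a higher mean FPKM in obese medulla. In medulla its mean FPKM was 248 ± 43.6 in lean and 5319 ± 1409 in obese rats (SD, n = 5), a log2 difference of 4.40 against 5.91 in cortex. The 4 IDs were chosen for large differences in the same cortex libraries, which favours a larger effect in cortex in this test. For ENSRNOG00000043451 the difference between the tissues was 1.50 ± 0.361 (SE, limma, adjusted p = 0.0178) as deposited and 1.54 ± 0.303 (adjusted p = 0.00353) after rescaling. With the replicate number within genotype as a block in the limma fit, it missed the threshold as deposited (1.32, adjusted p = 0.069). After rescaling the call was kept (1.40, adjusted p = 0.00845). On the log2 scale ENSRNOG00000010932 fell more in cortex, from a mean of 9.33 to 0.839 FPKM, than in medulla. In medulla it went from 23.1 ± 2.21 to 8.46 ± 3.89 FPKM (SD, n = 5), a larger fall in FPKM. Its difference between the tissues was -1.40 ± 0.339 (adjusted p = 0.0178) as deposited. After rescaling it was -1.32 ± 0.365 (adjusted p = 0.0306), and it missed the threshold, with adjusted p of 0.0511 to 0.0569, without cortex lean replicate 6, cortex obese replicate 1 or 2, medulla lean replicate 1 or 3, or medulla obese replicate 4.

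The other two IDs gave no call for a difference between the tissues. ENSRNOG00000030729 rose in medulla from 2.33 ± 0.282 to 81.6 ± 23.4 FPKM (SD, n = 5), and the interaction was 0.30 ± 0.265 (SE, adjusted p = 0.589) as deposited and 0.36 ± 0.228 (adjusted p = 0.383) after rescaling. ENSRNOG00000036984 fell from 43.8 ± 3.59 to 7.82 ± 5.07 FPKM in medulla, and the interaction was 0.04 ± 0.656 (adjusted p = 0.988) as deposited and 0.08 ± 0.632 (adjusted p = 0.959) after rescaling. The standard error of this ID was the widest of the 4, so its missed threshold does not show that the tissues responded alike. Some of its obese cortex values lay below the pseudocount of 0.5, and the estimate moved with that setting. With a pseudocount of 0.1 the interaction was -0.54 as deposited (limma, adjusted p = 0.800).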

How the data were processed

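Kidney cortex RNA of lean and obese vehicle-treated rats was measured in 5 libraries each. The authors deposited FPKM values per Ensembl gene ID, per the file headers; the sources used here name no aligner, counting tool or genome build. Columns were matched to samples by the library number in each sample's description. R 4.3.3 with limma 3.58.1 (trend and robust moderation) was run on log2(FPKM + 0.5) of the 10 libraries, as deposited and after median-ratio rescaling, with Benjamini-Hochberg adjustment over all tested IDs; the medulla comparison used 20 libraries. Exact permutation tests used scipy 1.17.1 and figures matplotlib 3.10.9. The fits were tested on simulated data.

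Relative depth came from IDs detected in 5 to 22 of the 50 libraries. Of 60625 low values, 91.1% fell within 0.1 reads of a whole multiple. The step of each of the 5131 IDs was its own smallest value, which is a whole multiple by definition. Some arbitrary values would also fall within 0.1, so the share is a description. Relative depth ranged from 0.599 to 1.53 over the series and limits the precision of low IDs.

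The IDs named are the 2 largest rises and 2 largest falls after rescaling among those called on both scales, with a mean of at least 2 FPKM in the higher group and no overlap of the groups; the rule's demand for a gene symbol was dropped, since no ID matched one. For the same reason the 27 gene lists, written as symbols, were not run and no sequence is shown. Members and lists were chosen with earlier results of these data known. Alternatives were a pseudocount of 0.1, no filter, all 25 cortex libraries, the replicate number as a block, the library number range, relative depth as a term, and leaving out each library in turn.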

Additional observations from a re-analysis of the deposited data

Results flagged for a closer look

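Among 26 groups of 5 libraries examined for a distant library, of which chance alone flags about 1 in 20, 1 was found: the summed FPKM outside the 6 most abundant IDs was 366476 in lean cortex replicate 2, set apart from the other lean libraries but below every obese library. The interaction test called a difference between the tissues for 2 of the 4 IDs. The 4 IDs were chosen for large differences in the same cortex libraries, which favours a larger effect in cortex. For ENSRNOG00000043451 the log2 effect in cortex minus that in medulla was 1.50, and for ENSRNOG00000010932 it was -1.40, both on the deposited scale (limma, adjusted p = 0.0178 for each). With the replicate number within genotype as a block, only libraries with the same number in both tissues inform the contrast. In that limma fit ENSRNOG00000043451 missed the threshold (1.32, adjusted p = 0.069). ENSRNOG00000010932 kept its call there (-1.51, adjusted p = 0.0015).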

How the results depend on the processing

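The 4 IDs kept their direction and their call in cortex in all fits run on both scales. They were chosen as called on both scales with large differences in the same libraries, so this follows largely from their choice. Relative depth as a term gave 2635 calls as deposited (2166 higher, 469 lower, 792 at least 2-fold) and 2499 after rescaling (1445 higher, 1054 lower, 708 at least 2-fold). Equal sums outside the 6 most abundant IDs gave 1537 falls. The deposited median log2 difference of 0.29 became 0.16 with it, 0.13 with relative depth as a term and 0.18 without the filter. The remaining alternatives left each cortex count within 1.5 times its value.

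Without 1 library, cortex calls ranged from 6791 to 8232 as deposited (5934 to 7246 higher, 795 to 986 lower, 1231 to 1545 at least 2-fold) and from 5115 to 6104 after rescaling (2590 to 3040 higher, 2522 to 3064 lower, 981 to 1203 at least 2-fold). Tissue interactions ranged from 610 to 1108 (352 to 661 more positive in cortex, 243 to 447 in medulla) and, rescaled, from 843 to 1497 (532 to 1007 and 284 to 490).

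The replicate block gave 8118 cortex calls as deposited and 5937 after rescaling. Only numbers 1, 2, 3 and 6 occur in both groups, so lean replicate 7 and obese replicate 5 do not inform this contrast. Leaving out obese replicate 5 without a block gave 8232 and 6104 calls. An effect of blocking is therefore not told apart from the loss of these libraries. Same-numbered lean and obese cortex libraries correlated with r of 0.004 to 0.16 across IDs as deposited, and not every library correlated best with its own number. The numbers were therefore not taken as pairs in the cortex comparison. For same-numbered cortex and medulla libraries, r was 0.0008 to 0.088 in lean and 0.083 to 0.25 in obese rats as deposited. Lean replicate 1 and obese replicates 3 and 5 correlated best with their own number, and the others did not. The main interaction fit took all libraries as independent, and whether tissues share animals is unknown. With the replicate number within genotype as a block, only libraries with the same number in both tissues inform the contrast. Tissue interactions then numbered 464 (231 more positive in cortex, 233 in medulla) as deposited and 514 (345 and 169) after rescaling. ENSRNOG00000043451 missed the threshold as deposited (1.32, limma, adjusted p = 0.069). The cause of these changes was not tested. Depth limits low IDs most.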
